A study of Mus musculus with 2 samples.

Results

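The 7 genes described here make up the STING pathway and the handling of its ligand cGAMP: Tmem173, Tbk1, Ikbke, Irf3, Trex1, Enpp1 and Slc19a1. They were taken by symbol from the 32285 genes counted, and all 7 were listed. STING, the product of Tmem173, is a membrane protein of the endoplasmic reticulum that binds cyclic dinucleotides such as 2'3'-cGAMP. It then recruits the kinases TBK1 and IKKε (Ikbke), and TBK1 phosphorylates IRF3, which enters the nucleus and drives interferon-β and other cytokine genes. ENPP1 hydrolyses cGAMP outside cells, SLC19A1 is a folate carrier that also brings cyclic dinucleotides into some cells, and TREX1 is a DNA exonuclease that removes the DNA that cGAS would sense. In tumors, myeloid cells are known as a main site of the response to cGAMP given as a drug.

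Male C57BL/6J mice, 5 to 6 weeks old when obtained, carried orthotopic pancreatic tumors grown from K210 cells, a line from a spontaneous tumor of a genetically engineered mouse, and both groups carried these same tumor cells. One group received PBS, the vehicle, and the other cmExoaCD11b, exosomes loaded with IL-12 mRNA and cGAMP and coated with an antibody to CD11b, at 5 µg of cGAMP per mouse. Cells from the tumors of 3 mice per group, described by the study as immune cells, were pooled and sequenced 48 h after treatment as 1 droplet library per group, so a difference between the libraries cannot be told apart from a difference between the 2 pools of mice. The exosomes carried IL-12 mRNA and cGAMP together, so the parts of the treatment cannot be told apart either.

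After filtering, 6831 cells in the PBS library and 7064 in the cmExoaCD11b library were kept, with medians of 3460 and 4112 UMIs (unique molecules) per cell. Cells were assigned to classes by UMIs of marker genes, and class names below mean cells that passed such a gate. In both libraries neutrophil-like cells prevailed, with 3331 mature and 1096 immature cells in PBS and 2635 and 1675 in cmExoaCD11b. The gates left 13.9% and 10.4% of cells ungated, and 16 barcodes were kept in both libraries. The epithelial-like cells stood apart from the male host: 59.5% of the 42 in PBS and 54.8% of the 31 in cmExoaCD11b held Xist and no UMI of 4 Y-linked genes, against 0.615% and 0.368% of all cells. Haemoglobin UMIs, a sign of red cells or their free RNA, were at 30.3 CPM (the gene's UMIs divided by all UMIs of the class, times 1000000) in mature neutrophil-like cells of PBS and at 1782 CPM in those of cmExoaCD11b, and their part in the results below was not tested.

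Levels are given as CPM with an exact Poisson 95% interval, and ratios as cmExoaCD11b over PBS with an exact conditional 95% interval. With 1 library per group these intervals cover counting error only, no p-value can be given, and the spread between mice is unknown. Ratios were taken in the 8 classes with at least 50 cells in both libraries, and a gene was counted where it had at least 50 UMIs over both. It was called where its ratio was at least 1.5 or at most the inverse of 1.5. Fewer UMIs per cell and fewer cells that use a gene cannot be told apart in these sums.

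Tmem173 was found in mononuclear phagocytes and T cells of these tumors and was sparse in neutrophils. In the PBS library its level was 60.1 CPM (33.7–99.2) in the 25 dendritic-like cells, 30.7 CPM (25.7–36.5) in macrophage-like cells and 26.9 CPM (21.6–33.2) in monocyte-like cells. CD8, CD4 and other T-like cells held 29.6, 27.2 and 27.8 CPM, and the intervals of these 3 classes overlapped with those of macrophage-like and monocyte-like cells. The 22 natural killer-like cells, with 2 UMIs, held 28.1 CPM (3.41–102), and plasma cells held 12.7 CPM (6.93–21.3). B-like cells held 7.26 CPM (3.48–13.4), and mature and immature neutrophil-like cells held 2.22 CPM (1.48–3.22) and 2.40 CPM (1.77–3.18). The neutrophil values lay below those of every phagocyte and T class without overlap, and also below the 6.88 CPM (4.36–10.3) of empty droplets, which carry the free RNA of the suspension. The intervals of natural killer-like, plasma and B-like cells overlapped with that of empty droplets. For these classes the levels cannot tell whether the cells held Tmem173 RNA of their own.

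In the cmExoaCD11b library, among classes of at least 50 cells, the highest Tmem173 levels were 78.7 CPM (61.4–99.5) in 67 dendritic-like cells and 59.5 CPM (51.8–68.0) in monocyte-like cells. Macrophage-like cells held 35.0 CPM (25–47.6), CD4 T-like cells 40.5 CPM (30.2–53.3) and CD8 T-like cells 30.2 CPM (22.5–39.7). The 85 natural killer-like cells held 31.0 CPM (14.9–57.0) and plasma cells 20.1 CPM (15.7–25.4). Both intervals, and that of other T-like cells at 25.4 CPM (17.4–35.9), overlapped with the 16.2 CPM (12.6–20.6) of empty droplets. Mature and immature neutrophil-like cells held 4.77 CPM (3.57–6.24) and 4.12 CPM (3.45–4.88), again below all other classes of 50 or more cells. Neutrophil-like cells thus held few Tmem173 UMIs for their number. Immature neutrophil-like cells carried 39.8% of all UMIs in PBS and 9.80% of those of Tmem173, whereas macrophage-like cells carried 8.35% and 26.3%. In cmExoaCD11b, monocyte-like cells held 24.4% of the Tmem173 UMIs and 5.79% of all UMIs. Macrophage-like cells of that library held 4.54% and 1.83%, and dendritic-like cells 7.95% and 1.42%. Macrophage-like cells were 300 in PBS and 91 in cmExoaCD11b.

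**Figure D1:**
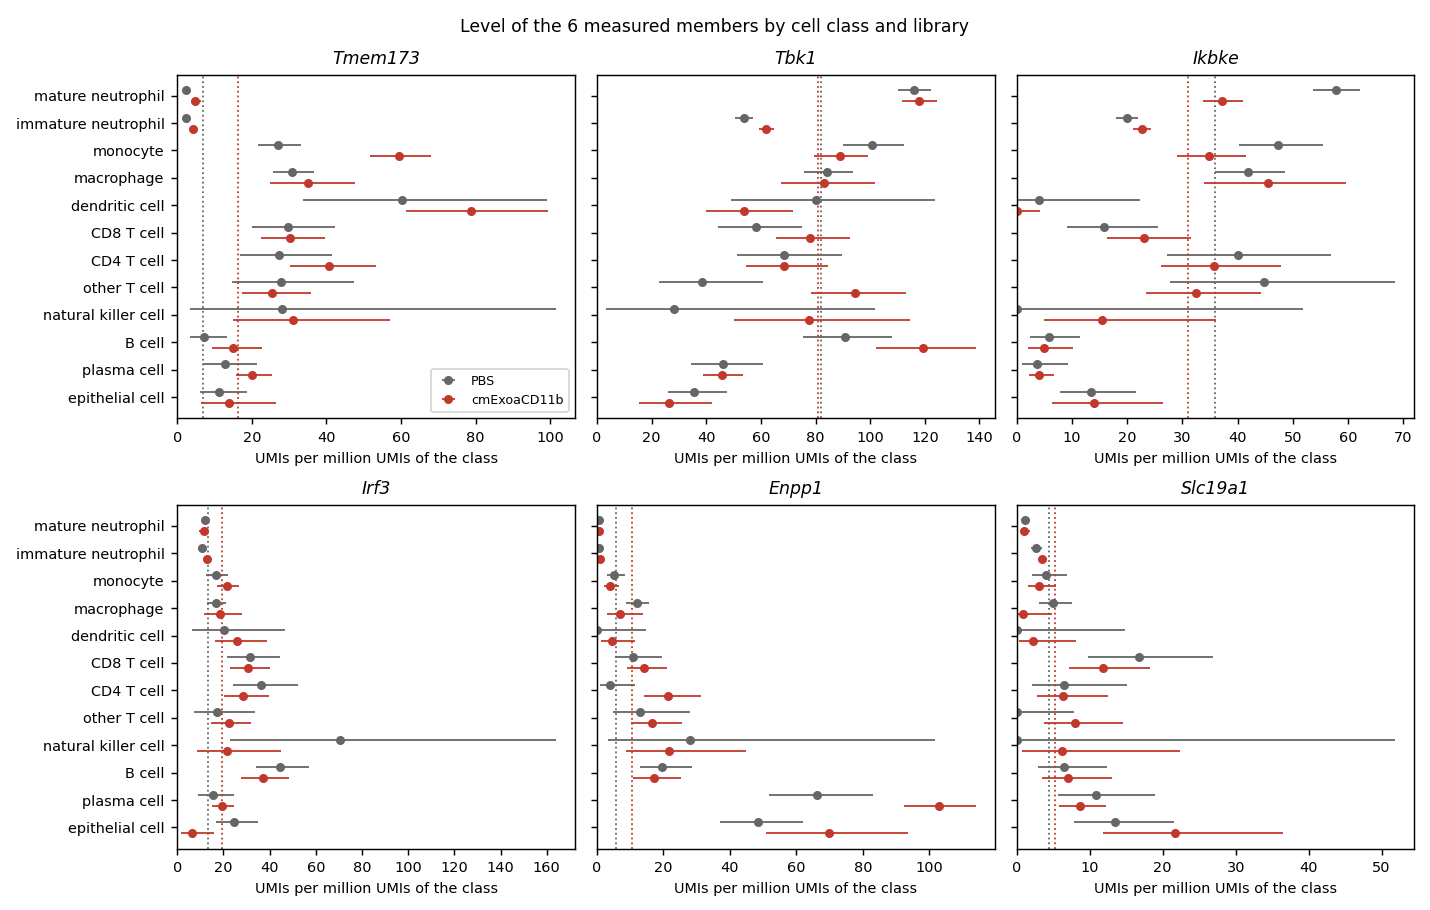
Level of each measured gene (horizontal axis, CPM) in 12 marker-gated classes of the PBS (grey) and cmExoaCD11b (red) libraries; points are the level, bars its exact Poisson 95% interval and dotted lines the empty droplets. Tmem173 is lowest in both neutrophil classes and Enpp1 highest in plasma and epithelial-like cells, whereas Tbk1 has UMIs in all 12.

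The kinase genes had other distributions. Tbk1 had UMIs in every class with at least 20 cells and was high in mature neutrophil-like cells, at 116 CPM (110–122) in PBS and 118 CPM (112–124) in cmExoaCD11b, and in B-like cells, at 90.8 CPM (75.5–108) and 119 CPM (102–139). Monocyte-like cells held 101 and 88.8 CPM, an interval that in PBS overlaps with that of B-like cells, and macrophage-like cells 84.3 and 83.1 CPM. Immature neutrophil-like cells held less, at 53.8 CPM (50.7–57.1) in PBS and 62.0 CPM (59.3–64.7) in cmExoaCD11b. Tbk1 in empty droplets was 81.9 and 80.8 CPM, which lies above the level of several classes. For those classes the levels cannot tell whether the cells held Tbk1 RNA of their own.

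Ikbke, whose product can act beside TBK1 downstream of STING, was unevenly spread over the classes. In PBS it was at 57.8 CPM (53.6–62.1) in mature neutrophil-like cells, 47.4 CPM (40.2–55.5) in monocyte-like cells and 41.9 CPM (36–48.6) in macrophage-like cells. Immature neutrophil-like cells, at 19.9 CPM (18–21.9), held less than mature ones and less than the empty droplets, at 35.9 CPM (29.8–42.9). CD4 and other T-like cells held 40.1 and 44.9 CPM, whereas CD8 T-like cells held 15.8 CPM (9.03–25.7). B-like cells held 5.81 CPM (2.51–11.4) and plasma cells 3.62 CPM (0.987–9.28). Dendritic-like cells, which were the richest in Tmem173, held 1 Ikbke UMI in PBS and 0 in cmExoaCD11b, where 0 UMIs allow at most 3.38 CPM (3 UMIs).

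Irf3, the transcription factor of the pathway, was at low levels throughout and, among classes with at least 50 cells in both libraries, was highest in B-like and in CD4 and CD8 T-like cells. It reached 44.3 CPM (33.9–56.9) in B-like cells, 36.2 CPM (24.1–52.3) in CD4 T-like cells and 31.6 CPM (21.6–44.6) in CD8 T-like cells of PBS. Macrophage-like and monocyte-like cells both held 16.7 CPM, and mature and immature neutrophil-like cells 12.1 CPM (10.2–14.2) and 10.8 CPM (9.40–12.3). The B-cell interval overlapped with those of the CD4 and CD8 T-like cells and lay above those of the monocyte-like, macrophage-like and both neutrophil-like classes. Empty droplets held 13.2 CPM (9.56–17.7), and the myeloid levels were not above this beyond counting error. Empty droplets carry the free RNA of the same suspension, so this comparison cannot tell whether myeloid cells held Irf3 RNA of their own.

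Enpp1 and Slc19a1, the members that handle extracellular cGAMP, had other distributions again. Enpp1, the hydrolase, was highest in plasma cells, at 66.1 CPM (51.8–83.1) in PBS and 103 CPM (92.4–114) in cmExoaCD11b, and in epithelial-like cells, at 48.3 CPM (37.0–62.1) and 69.9 CPM (51.0–93.5). B-like cells held 19.6 and 17.1 CPM, macrophage-like cells 11.9 and 7.0 CPM, and empty droplets 5.68 and 10.6 CPM. Both neutrophil classes were below 1 CPM in both libraries. Plasma cells were 46 in PBS and 139 in cmExoaCD11b, and they held 25.7% of the Enpp1 UMIs of the first library and 57.4% of those of the second. Epithelial-like cells held 21.5% and 7.21%. Macrophage-like cells held 17.6% and 1.28% of the Enpp1 UMIs, against 8.35% and 1.83% of all UMIs.

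**Figure D2:**
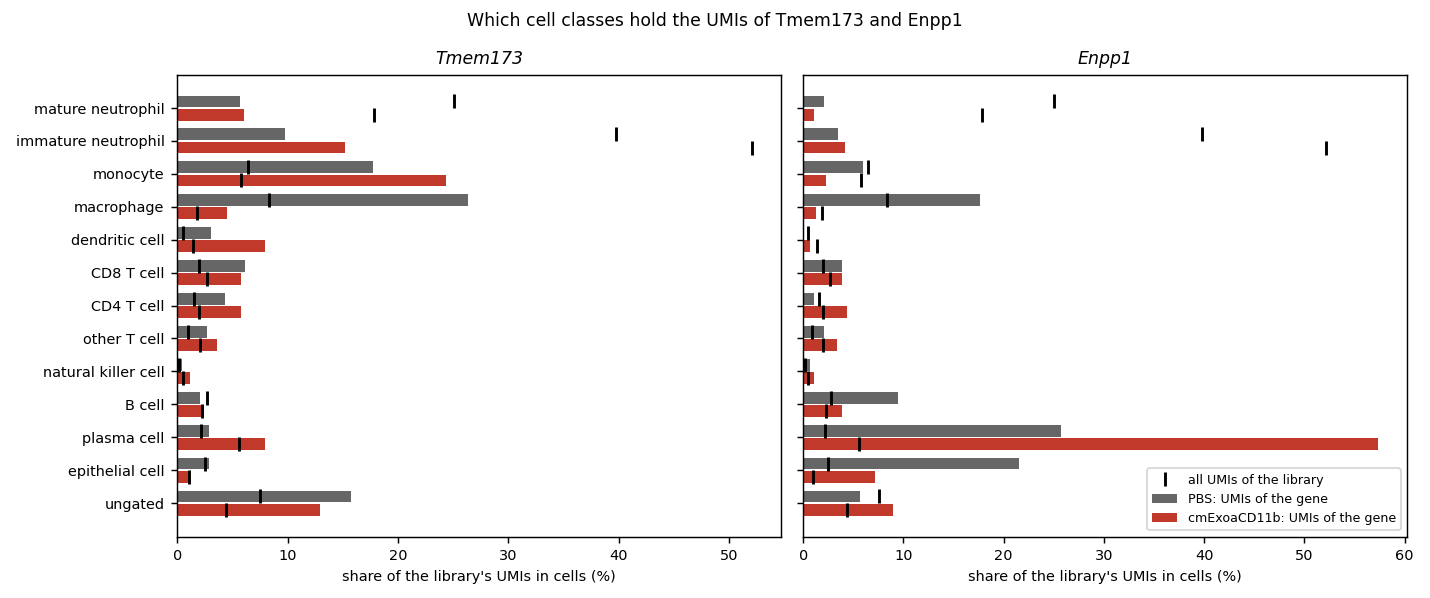
Share of the UMIs of Tmem173 (left) and Enpp1 (right) held by each class, in percent of the gene's UMIs in all cells of the library (bars, grey PBS, red cmExoaCD11b), with the class's share of all UMIs as a black tick. Bars right of the tick mark classes that hold more of the gene than of all UMIs, among them monocyte-like, macrophage-like and dendritic-like cells for Tmem173 in both libraries, and plasma and epithelial-like cells for Enpp1.

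Slc19a1, the carrier, was sparse everywhere, with 172 UMIs in all PBS cells and 255 in all cmExoaCD11b cells. Its levels were 16.8 CPM (9.78–26.9) in CD8 T-like cells and 13.5 CPM (7.85–21.6) in epithelial-like cells of PBS, and 11.8 and 21.7 CPM in cmExoaCD11b. Monocyte-like cells held 4.02 and 3.04 CPM, macrophage-like cells 5.0 and 0.875 CPM, the last of these from 1 UMI. Slc19a1 in empty droplets was 4.49 and 5.32 CPM, and the phagocyte values were not above these beyond counting error. As for Irf3, this cannot tell whether the phagocytes held Slc19a1 RNA of their own.

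Trex1 had 0 UMIs in the 1367842 barcodes of both libraries, cells and empty droplets together. For UMIs counted as Trex1 this allows at most 0.0597 CPM over all PBS cells and 0.0480 CPM over all cmExoaCD11b cells. A total of 7841 genes, 24.3% of those listed, had no UMI. In the GENCODE M21 annotation of the GRCm38 mouse genome all 1147 exon bases of Trex1 lie within exons of Atrip on the same strand, whereas the other 6 members share no exon base with another gene on their strand. Atrip, added after its values were seen, had 629 UMIs. Reads that fall in 2 genes are commonly not counted, so these counts cannot tell whether Trex1 RNA was absent. The annotation behind the counts is not given in the sources used here, and the part of the overlap was not tested.

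Few cells showed the whole chain. Cells with a UMI of Tmem173, of Irf3 and of Tbk1 or Ikbke made up 4.26% (2.29–7.18, Clopper-Pearson) of monocyte-like cells in PBS and 10.3% (7.17–14.3) in cmExoaCD11b. The shares were 6.33% (3.86–9.71) and 11% (5.40–19.3) in macrophage-like cells and 0.120% (0.0327–0.307) and 0.266% (0.107–0.547) in mature neutrophil-like cells. Such cells were not particular to phagocytes: they made up 6.52% (1.37–17.9) and 14.4% (9.02–21.3) of plasma cells and 11.9% (3.98–25.6) and 6.45% (0.791–21.4) of epithelial-like cells. Mature neutrophil-like cells had a median of 3007 UMIs in PBS, against 8531 in monocyte-like and 24300 in plasma cells. Immature neutrophil-like cells, with a median of 15350 UMIs in PBS, showed 1.55% (0.906–2.47) and 2.03% (1.41–2.82). When every cell was thinned to 1000 UMIs, 0 of 6464 PBS cells and 1 of 6625 cmExoaCD11b cells showed the 3 parts together, so at equal depth the classes could not be ranked. The share of cells with a Tmem173 UMI after thinning was 1.67% and 3.91% in monocyte-like cells and 0.126% and 0.280% in mature neutrophil-like cells, from at most 12 cells in each.

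Between the libraries, Tmem173 was higher in cmExoaCD11b over all cells. Its level was 9.75 CPM in PBS and 14.1 CPM in cmExoaCD11b, a ratio of 1.45 (1.29–1.62), where 22.6% of the 14184 genes counted were called, and Enpp1 was the 1 member called. Giving each of 13 classes, ungated cells among them, the same weight in both libraries gave a Tmem173 ratio of 1.63 (1.45–1.83). In monocyte-like cells 87 UMIs in PBS and 215 in cmExoaCD11b gave 26.9 and 59.5 CPM and a ratio of 2.21 (1.71–2.87), where 26.0% of genes were called. Tmem173 was the only one of the 4 members counted in monocyte-like cells that was called. The summed level of 8 T cell markers in the monocyte-like cells was 40.3 CPM in PBS and 72.5 CPM in cmExoaCD11b, and that of 5 macrophage markers was 267 and 101 CPM; their part in the ratio was not tested. When classes were instead clusters of the cells, each named by its commonest gate, the monocyte cluster held 36.1 and 49.3 CPM. The ratio was 1.37 (1.02–1.85), past counting error and below 1.5-fold. This cluster held 158 PBS and 473 cmExoaCD11b cells, against 305 and 310 in the gate, and 59.4% of its cells were monocyte-gated.

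In immature neutrophil-like cells, where 13.7% of genes were called, Tmem173 was at 2.40 and 4.12 CPM, a ratio of 1.72 (1.23–2.44). In mature neutrophil-like cells, where 38.2% of genes were called, 28 and 53 UMIs gave 2.22 and 4.77 CPM and a ratio of 2.14 (1.33–3.52). This last difference turned with the definition of the class: over clusters named as mature neutrophils, 27 and 18 UMIs gave 1.73 and 1.17 CPM and a ratio of 0.680 (0.353–1.28). Tmem173 in empty droplets was also higher in cmExoaCD11b, at 16.2 CPM (12.6–20.6) against 6.88 CPM, and its part in the neutrophil ratios was not tested beyond this: subtracting 10% of UMIs as free RNA left ratios of 2.05 in mature and 1.46 in immature neutrophil-like cells. Relative to the median ratio over all counted genes, which was 0.873 in mature, 1.14 in immature neutrophil-like and 1.09 in monocyte-like cells, the Tmem173 ratios were 2.46, 1.51 and 2.03.

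Tmem173 showed no difference past counting error in the other classes where it was counted. The ratio was 1.14 (0.777–1.63) in macrophage-like cells, where 22.0% of genes were called, and 1.02 (0.637–1.66) in CD8 T-like cells, where the share was 29.2%. In CD4 T-like cells, where 17.0% of genes were called, it was 1.49 (0.882–2.61). These intervals include both no difference and a 1.5-fold one. With cells called by the ranked-UMI limit alone, the ratios were 2.96 in CD4 T-like cells, from 8 and 24 UMIs, and 1.70 in CD8 T-like cells, from 19 and 23 UMIs. Dendritic-like cells held 15 UMIs in PBS and 70 in cmExoaCD11b, with levels whose intervals overlap.

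**Figure D3:**
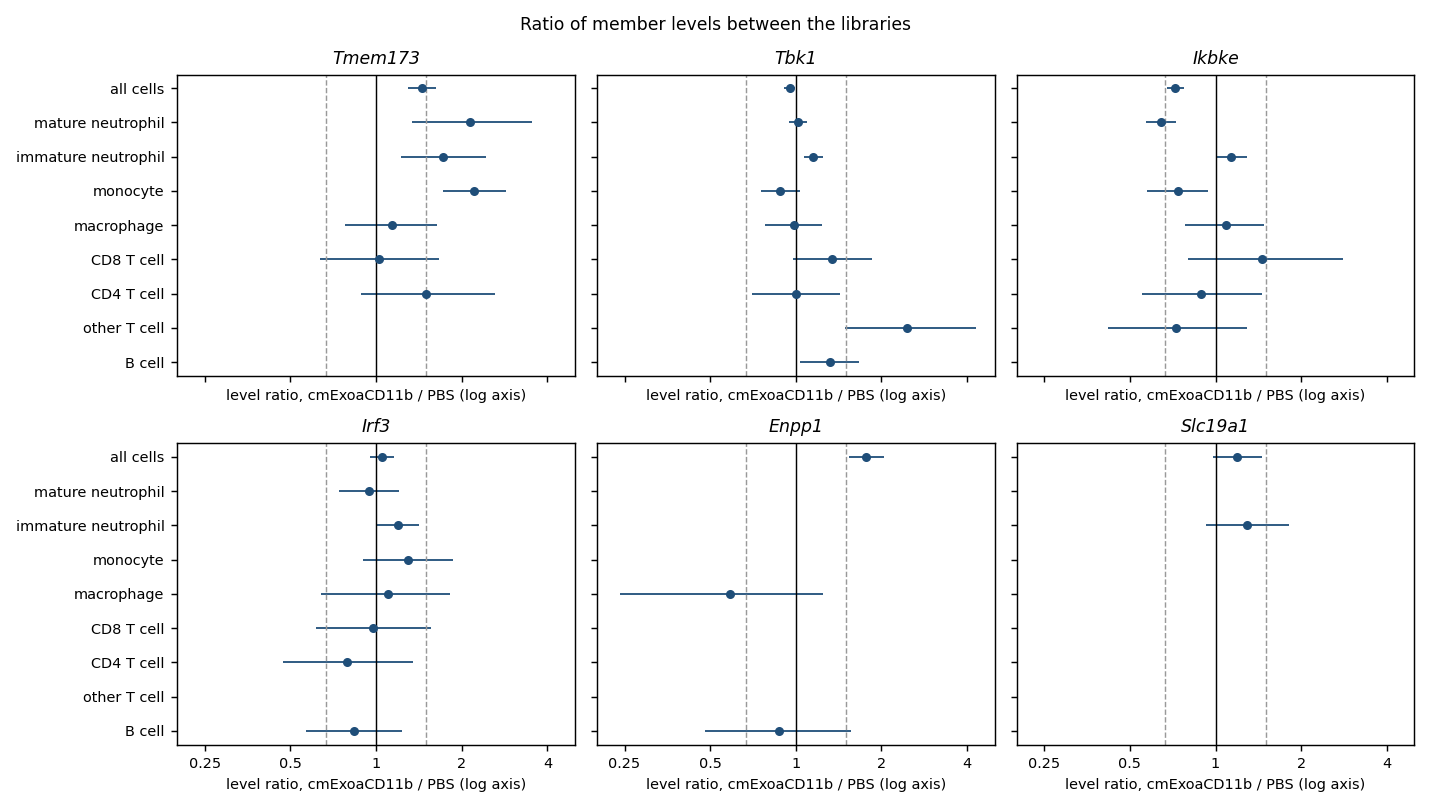
Ratio of each member's level in cmExoaCD11b to that in PBS (horizontal log axis) over all cells and in the 8 classes compared; points are ratios, bars exact conditional 95% intervals for counting error, dashed lines the 1.5-fold limits, and classes with fewer than 50 UMIs have no point. Tmem173 lies above 1 in monocyte-like cells (2.21) and both neutrophil classes, and Ikbke below 1 in mature neutrophil-like cells (0.643) and monocyte-like cells (0.736).

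Ikbke was lower in the cmExoaCD11b library, where its level over all cells was 25.5 CPM against 35.4 CPM in PBS, a ratio of 0.721 (0.673–0.772), and 0.845 (0.788–0.906) at equal class make-up. Among the gated classes compared, the Ikbke interval lay below 1 in mature neutrophil-like cells and in monocyte-like cells. Mature neutrophil-like cells held 57.8 CPM in PBS and 37.2 CPM in cmExoaCD11b, a ratio of 0.643 (0.569–0.727). Monocyte-like cells held 47.4 and 34.8 CPM, a ratio of 0.736 (0.576–0.937). Ungated cells also held less in cmExoaCD11b, at 59.7 and 37.9 CPM, a ratio of 0.635 (0.499–0.805). Relative to the median ratio in mature neutrophil-like cells the Ikbke ratio was 0.737, below 1 and within 1.5-fold. In the mature gate the summed level of the 5 immature neutrophil markers was 3678 CPM in PBS and 7769 CPM in cmExoaCD11b. Immature neutrophil-like cells held less Ikbke, and the part of this marker shift in the Ikbke ratio was not tested. With both neutrophil classes taken as 1, the Ikbke ratio was 0.763 (0.702–0.829). In immature neutrophil-like cells Ikbke was at 19.9 CPM in PBS and 22.6 CPM in cmExoaCD11b, a ratio of 1.14 (1.01–1.29), which relative to that class's median ratio was 1.0. Macrophage-like cells held 41.9 and 45.5 CPM, a ratio of 1.08 (0.780–1.48).

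Tbk1 was close to equal in the libraries, at 80.2 and 76.3 CPM over all cells, a ratio of 0.951 (0.912–0.992), and 1.05 (1.01–1.10) at equal class make-up. In mature neutrophil-like cells, with 1460 and 1310 UMIs, the ratio was 1.02 (0.943–1.10). The exception was the other T-like cells, those with T cell markers and UMIs of neither or both of Cd4 and Cd8, where 18.3% of genes were called. Here 18 UMIs in PBS and 119 in cmExoaCD11b gave 38.5 CPM (22.8–60.8) and 94.5 CPM (78.3–113), a ratio of 2.46 (1.49–4.29). In CD8 T-like and CD4 T-like cells the Tbk1 ratios were 1.34 (0.980–1.86) and 0.998 (0.700–1.43). B-like cells, where 13.4% of genes and none of the 3 members counted were called, had a Tbk1 ratio of 1.31 (1.04–1.67).

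Irf3 was at 14.9 CPM in PBS and 15.6 CPM in cmExoaCD11b over all cells, a ratio of 1.05 (0.95–1.15). It was counted in 7 classes, where from 13.4% to 38.2% of all genes were called, and was called in none. Its ratios ran from 0.790 in CD4 T-like cells to 1.29 in monocyte-like cells. Its interval left out 1 only in immature neutrophil-like cells, at 1.19 (1.01–1.41), a class whose median ratio over genes was 1.14.

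Enpp1 was higher in the cmExoaCD11b library, at 9.99 CPM against 5.65 CPM over all cells, a ratio of 1.77 (1.53–2.04), and the library also held more plasma cells. At equal class make-up the ratio was 1.5 (1.29–1.76). That weighting takes ungated cells as 1 class and does not make the make-up within a class equal. Ungated cells held 4.23 CPM of Enpp1 in PBS and 20.4 CPM in cmExoaCD11b. Their plasma cell markers were at 271 and 2673 CPM, and the part of these in the ratio was not tested. Plasma cells, too few in PBS for a ratio by the rule, held 73 and 358 Enpp1 UMIs, and their levels given above have intervals that do not overlap. CD4 T-like cells held 3 UMIs in PBS and 27 in cmExoaCD11b, a ratio of 5.53 (1.70–28.5), with too few UMIs to be counted. In macrophage-like cells the ratio was past 1.5-fold the other way, at 0.587 (0.241–1.25), from 50 and 8 UMIs and with an interval that includes 1. Slc19a1 was counted in immature neutrophil-like cells alone, at 2.70 and 3.47 CPM, a ratio of 1.29 (0.922–1.81).

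Over the 8 classes, 31 pairs of a member and a class were counted and 6 were called, namely Tmem173 in monocyte-like and both neutrophil-like classes, Tbk1 in other T-like cells, Ikbke in mature neutrophil-like cells and Enpp1 in macrophage-like cells. Read against the shares of all genes called in these classes, from 13.4% to 38.2%, this is near the background. Among ungated cells, where 35.2% of genes were called, Enpp1 had a ratio of 4.83 (2.73–9.03), Tmem173 of 2.04 (1.52–2.77) and Ikbke of 0.635 (0.499–0.805). In these ungated cells the summed level of 6 plasma cell markers was 271 CPM in PBS and 2673 CPM in cmExoaCD11b. Haemoglobin was at 9.25 and 5291 CPM. The part of both in these ratios was not tested.

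Of 8 further genes for the synthesis, transport and breakdown of cGAMP, 6 were counted over all cells, and Slc46a2 and Lrrc8e were nearly absent. Over all cells 1 was called higher and 1 lower, where 22.6% of all genes were called. In monocyte-like cells 1 was called higher and 3 lower, against 26.0% of genes, and in mature neutrophil-like cells 3 and 1, against 38.2%. Cgas, the enzyme that makes cGAMP from DNA, was higher in cmExoaCD11b, at 13.2 and 22.5 CPM over all cells, a ratio of 1.71 (1.56–1.88). Its ratios were 2.82 (2.0–4.06) in monocyte-like cells, 1.69 (1.49–1.93) in immature and 1.55 (1.24–1.92) in mature neutrophil-like cells. P2rx7, an ATP-gated channel through which cGAMP can enter cells, was lower, at 37.5 and 16.8 CPM, a ratio of 0.448 (0.415–0.483). The P2rx7 ratios were 0.503 (0.395–0.637) in monocyte-like cells and 0.496, 0.559 and 0.397 in CD8, CD4 and other T-like cells, but 0.926 (0.743–1.15) in macrophage-like cells. In mature and immature neutrophil-like cells they were 0.687 (0.576–0.817) and 0.668 (0.515–0.867). Abcc1, which exports cGAMP, had a ratio of 0.388 (0.295–0.508) in monocyte-like cells, and Smpdl3a, which degrades extracellular cGAMP, one of 2.68 (2.44–2.95) in mature neutrophil-like cells.

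Of 9 genes of STING traffic and turnover, 1 was called higher and 1 lower over all cells, which is near the 22.6% of all genes called. These were Stim1, which holds STING at the endoplasmic reticulum, with a ratio of 1.63 (1.56–1.70), and Npc1, a lysosomal cholesterol transporter that takes part in STING breakdown, with a ratio of 0.650 (0.603–0.700). Of 9 genes for scaffolds of the kinases and the NF-κB arm, 9 were counted and 0 called over all cells, against the same 22.6%. In CD8 T-like cells, where 29.2% of all genes counted were called, 4 of the 7 counted were called higher, and the largest of these ratios were 1.79 (1.26–2.56) for Azi2 and 1.75 (1.56–1.97) for Nfkb1.

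Of 7 output genes of the pathway, 6 were counted in each of the 4 myeloid classes. In macrophage-like cells 4 were called higher and 2 lower, where 22.0% of all genes were called. Mature neutrophil-like cells had 5 higher and 1 lower, against 38.2% of genes. In monocyte-like cells it was 3 and 0, against 26.0%, and in immature neutrophil-like cells 2 and 1, against 13.7%. Irf7, an interferon-induced gene, was higher in cmExoaCD11b in all 8 classes, with ratios from 2.36 in CD4 T-like cells to 5.28 in macrophage-like cells. Ifnb1, which encodes interferon-β, was at 51.9 CPM in PBS and 166 CPM in cmExoaCD11b in macrophage-like cells, a ratio of 3.20 (2.62–3.90), and at 57.3 and 112 CPM in monocyte-like cells, a ratio of 1.95 (1.64–2.33). In mature neutrophil-like cells Ifnb1 was at 1.83 and 8.64 CPM, a ratio of 4.73 (2.98–7.81). Tnf, an NF-κB target, was lower in cmExoaCD11b in mature neutrophil-like cells, at 874 and 309 CPM, a ratio of 0.353 (0.340–0.367), and in macrophage-like cells, with a ratio of 0.480 (0.421–0.546). Immature neutrophil-like cells, whose markers were higher in the mature gate of cmExoaCD11b as given above, held 152 and 124 CPM of Tnf, and the part of this shift in the Tnf ratio was not tested. Macrophage-like cells thus differed in Ifnb1 and Irf7 between the libraries. None of their Tmem173, Tbk1, Ikbke and Irf3 ratios left 1 beyond counting error. The intervals for Tmem173 (0.777–1.63) and Irf3 (0.642–1.815) also include a 1.5-fold difference. In the same gate the summed level of 5 macrophage markers was 9384 CPM in PBS and 5797 CPM in cmExoaCD11b, that of 8 T cell markers 185 and 449 CPM, that of 6 natural killer cell markers 9.29 and 49 CPM, and haemoglobin 56.5 and 1605 CPM. Their part in these ratios was not tested.

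**Figure D4:**
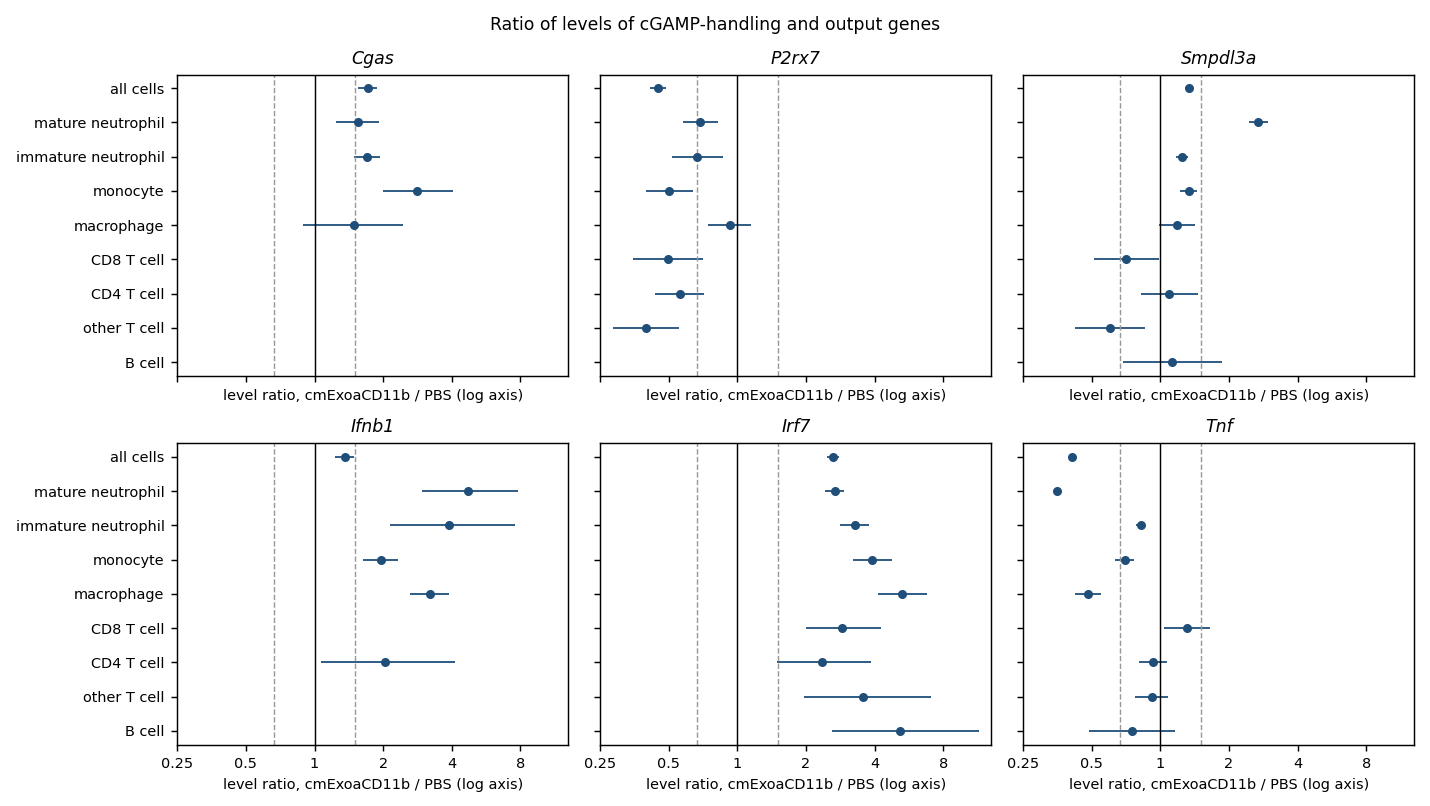
Ratio of the level in cmExoaCD11b to that in PBS (horizontal log axis) for 3 cGAMP-handling genes (top) and 3 output genes (bottom) over all cells and in 8 classes; points, bars and dashed lines are ratios, counting intervals and the 1.5-fold limits, and classes with fewer than 50 UMIs have no point. Irf7 is above 1.5-fold in all 8 classes, P2rx7 below 1 in monocyte-like, T-like and both neutrophil-like classes, and Tnf lowest in mature neutrophil-like cells (0.353).

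Within a library, cells with and without UMIs of 7 interferon-stimulated genes, each cell thinned to 1000 UMIs, were compared for the kinases. Mature neutrophil-like cells, which held the most kinase UMIs after this thinning, are given first. Among them, cells with at least 1 UMI of the 7 genes were 30.1% in PBS and 62.1% in cmExoaCD11b. Their Tbk1 level was 136 against 118 CPM in PBS, a ratio of 1.15 (0.923–1.42), and 151 against 116 CPM in cmExoaCD11b, a ratio of 1.30 (1.04–1.65). Ikbke ratios were 1.13 (0.851–1.5) and 0.873 (0.617–1.24). Tmem173 had at most 4 UMIs in each of these sets of cells, too few to compare. In other classes Tbk1 went either way. Its ratios in PBS and cmExoaCD11b were 0.65 (0.287–1.35) and 0.855 (0.448–1.66) in monocyte-like cells. In immature neutrophil-like cells they were 2.87 (1.25–5.845), with 9 Tbk1 UMIs in the cells above the limit, and 1.19 (0.741–1.87).

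Itgam, which encodes the CD11b that the antibody binds and which was added after its values were seen, was at 495 CPM in PBS and 274 CPM in cmExoaCD11b in monocyte-like cells and at 429 and 277 CPM in macrophage-like cells. In mature neutrophil-like cells it was at 499 and 424 CPM, and in CD8 T-like cells at 9.87 and 17.2 CPM. The classes with the most Itgam thus included mature neutrophil-like cells, which held little Tmem173, as well as monocyte-like and macrophage-like cells, which held more. These are RNA levels, and CD11b protein was not measured in these libraries.

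Across 19 profiles of a class in a library, the genes most like each member were found among 11012 genes by Pearson's r of log2(CPM + 5), as a description, since profiles of a library share its depth and free RNA. Tmem173 was most like Psmb10, a subunit of the immunoproteasome, at r = 0.938, then Dpy19l1 and Crip1. Ikbke was most like Furin, a protease, at 0.919, Tbk1 like Zfyve1 at 0.890, Irf3 like Lsg1 at 0.919, Enpp1 like Fam214a at 0.921 and Slc19a1 like Mmaa at 0.834.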

How the data were processed

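Raw UMI counts for every barcode of 2 Chromium 3' libraries were deposited by the authors, neither normalized nor filtered. The file headers name Cell Ranger 7.1.0 and the study's methods another version; the build, annotation and treatment of introns are not given in the sources used here. Barcodes were called by a ranked-UMI limit and by comparison with empty droplets (at most 100 UMIs; 10000 simulations, false discovery rate 0.01), and those with under 200 genes or over 20% mitochondrial UMIs were left out. The highest Scrublet scores, 0.8% per 1000 cells, were removed (421 and 452), because its automatic threshold marked 0. The kept cells held 50275389 and 62441858 UMIs. A class needed 2 marker genes, an excess of 2 UMIs over 10% of free RNA, and 2 times the next class.

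Counts were summed per class and library. No p-value was computed and no count model fitted, since each group is 1 library. The interval code was tested on simulated data. Each floor for a count of 0 uses 3 counts. Named genes are the 7 members, at most 3 per direction and class from 4 fixed lists, and the 3 nearest genes in pattern. The members and lists were chosen with earlier results of these data known. Atrip, Itgam, Xist, the Y-linked and the haemoglobin genes were added after values were seen. Python 3.11.15, numpy 2.4.6, scipy 1.17.1, scanpy 1.11.5 and leidenalg 0.10.2 were used. Alternatives covered cell calling, doublets, the mitochondrial limit, gates, clusters, thinning, free RNA, scaling, shared barcodes, class weights, the UMI minimum and the split by interferon-stimulated UMIs; all neutrophil-like cells as 1 class was added after seeing the data. The alleles of the mouse behind the K210 line are not reported here.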

Additional observations from a re-analysis of the deposited data

Results flagged for a closer look

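Ikbke differed between the libraries in opposite directions in different classes. Its ratio of cmExoaCD11b to PBS was 1.14 in immature neutrophil-like cells, 0.643 in mature neutrophil-like cells and 0.736 in monocyte-like cells, each with a counting interval that leaves out 1. The difference between the classes was not tested, since there is 1 library per group. Relative to the median ratio of genes in its class, the value in immature neutrophil-like cells was 1.00.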

How the results depend on the processing

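No paired analysis was possible because each library is a pool of different mice. Thinning every cell to 1000 UMIs gave ratios over all cells of 1.93 for Tmem173, 0.653 for Ikbke, 1.21 for Irf3, 2.22 for Enpp1, 2.23 for Slc19a1 (from 7 and 16 UMIs) and, on the other side of 1, 1.01 for Tbk1. It left 7 pairs of a member and a class counted and 0 called, against 6 of 31, and without a minimum of UMIs 10 of 48 were called. The share of all genes called was not taken under these alternatives, so these counts cannot be set against a background. With the ranked-UMI limit alone the ratios over all cells were 0.996 for Tbk1 and 0.889 for Ikbke. Classes from clusters gave Tmem173 ratios of 1.37 in monocytes and 0.680, the other direction, in mature neutrophils, and an Irf3 ratio of 0.741 in monocytes against 1.29. With all neutrophil-like cells as 1 class, chosen after seeing the data, the Ikbke ratio was 0.763 (0.702–0.829), which also takes in the class shares. The causes were not tested. Over all alternatives Tmem173 ran from 1.37 to 2.63 in monocyte-like cells, Ikbke from 0.547 to 0.763 in mature neutrophil-like cells, and, of the values of the main results under an alternative, 90 did not move past the counting interval (for the count of calls, 1.5 times), 10 moved past it and 1 reversed. Among the 90, the Slc19a1 ratio over all cells was 0.991 with the ranked-UMI limit alone, on the other side of 1 from 1.19. One library per group, and few UMIs of Slc19a1, Enpp1 and Tmem173 outside their main classes, limit every comparison.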
